A study of Mus musculus with 8 samples.

Results

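The comparison described here is that of Rbpj-knockout bone marrow-derived macrophages after 2 days with tumour necrosis factor (TNF) at 40 ng/ml against the same kind of cells at day 0. It rests on 4 of the 8 libraries of the study, 2 per group, chosen by genotype, treatment and replicate number, and paired by that number. All groups were primary mouse macrophages grown from bone marrow. The knockout cells came from Rbpj flox/flox mice that carried LysMcre, a Cre recombinase expressed from the lysozyme 2 (Lyz2) locus in myeloid cells. The other 4 libraries were wild-type controls at the same day 0 and TNF day 2. The sources used here do not say whether the controls carried the Cre allele or the floxed allele, nor the age or sex of the mice. The series describes 2 independent experiments, and whether the pair of libraries in a group came from different mice is not stated, so a p-value reflects only the spread among these libraries. No group analysed here was kept for 2 days without TNF, so the effect of TNF and that of 2 days in culture cannot be told apart.

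Macrophages are precursors of osteoclasts, the multinucleated cells that resorb bone. TNF signals through its receptors to NF-kB and AP-1 factors and, under permissive conditions, to Nfatc1, the transcription factor that drives the osteoclast programme. Rbpj is the DNA-binding factor through which Notch receptors act on transcription, and it is known as a restraint on osteoclast formation in response to TNF. Osteoclasts fuse through membrane proteins, attach through an actin ring, and acidify the space below them with a proton pump and a chloride transporter. They digest matrix with cathepsin K and metalloproteinases, and this work is known to draw on many mitochondria.

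Values are CPM, reads of a gene scaled to the reads assigned to all genes, and a log2 change is the difference in log2(CPM + 0.5) with its moderated standard error from limma (2 libraries per group). Such a change understates that of low genes. A gene is called where the Benjamini-Hochberg adjusted p of limma, with the replicate number as a block, is under 0.05, and "without the block" marks the fit that leaves the pairing out. Depth was 27982448 and 22510387 reads at day 0 and 9855859 and 18962533 reads with TNF in the knockout, so TNF replicate 1 was the shallowest library. Replicates 1 and 2 stood apart in every group: the second principal component, with 32.9% of the variance, separated the numbers, and the first, with 44.9%, separated day 0 from TNF. Type I interferon-stimulated genes summed to 2536 CPM in knockout day 0 replicate 1 and 16144 CPM in replicate 2, and to 2177 and 8361 CPM in the wild-type pair. Neutrophil markers summed to 329 and 1226 CPM in the 2 knockout day 0 libraries. Counts that depend on 1 library are given with and without it.

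The targeted gene was low in all 4 knockout libraries. Rbpj (ENSMUSG00000039191.12, GRCm38 chromosome 5, 53466152 to 53657362, plus strand) stood at 38.9 and 31.8 CPM in the knockout at day 0, against 30 and 21.4 CPM with TNF. The day 0 wild-type libraries held 215 and 216 CPM and those given TNF 226 and 178 CPM, all above the knockout. The log2 change in the knockout was -0.46 ± 0.17 (adjusted p = 0.0853), which did not pass. The deposited counts are per gene and do not separate the floxed exons from the rest of the transcript. Of the markers of bone marrow macrophages, the M-CSF receptor Csf1r stood at 1863 and 3028 CPM at day 0, against 2078 and 3266 CPM with TNF. The lysosomal glycoprotein Cd68 stood at 1137 and 1144 and then 989 and 1628 CPM, and the integrin Itgam at 921 and 1207 and then 1020 and 671 CPM. None of these 3 was called, and in each the day 0 and TNF ranges overlapped. Other macrophage markers did change. Fcgr1 and Adgre1 were called lower and are given below with the resident macrophage markers. Mertk was called too, but not without knockout day 0 replicate 2. Lyz2, a usual macrophage marker, was low in both genotypes, at 7.25 and 13.4 CPM and then 13.7 and 25.8 CPM in the knockout and 7.65 and 30.3 CPM and then 26.6 and 102 CPM in the wild type. It can share reads with the near-identical Lyz1, so its level is uncertain.

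After 2 days with TNF, 1486 genes rose and 1676 fell in the knockout, 12.2% and 13.7% of the 12194 genes tested (25.9% in all). Without the block 377 rose (3.09%) and 245 fell (2.01%), 5.1% in all, and these 622 were all among the 3162 called with it. Of those called with the block, 1118 rose and 1102 fell by at least 1 on the log2 scale, 465 and 339 by at least 2, and 123 and 28 by at least 4. The smallest change called was 0.48 on the log2 scale. In 5567 of the genes tested (45.7%) the day 0 and TNF libraries of the knockout did not overlap, in either direction. So a lack of overlap in a gene named below is common by itself. Each of the 3162 called genes moved the same way in both replicates, against 78.7% of all genes tested. The calls were made on these same libraries, which favours such genes, so this is no separate support. Across genes, which are not independent replicates, the changes of the 2 replicates had a Pearson r of 0.827, and those of replicate 2 were more spread (SD 1.29) than those of replicate 1 (1.07). The number of calls fell to 894 without knockout day 0 replicate 2, 1455 without day 0 replicate 1, and 1305 without TNF replicate 2. It was 2585 without TNF replicate 1, and 760 genes were called whichever 1 of the 8 libraries was left out.

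**Figure D1:**
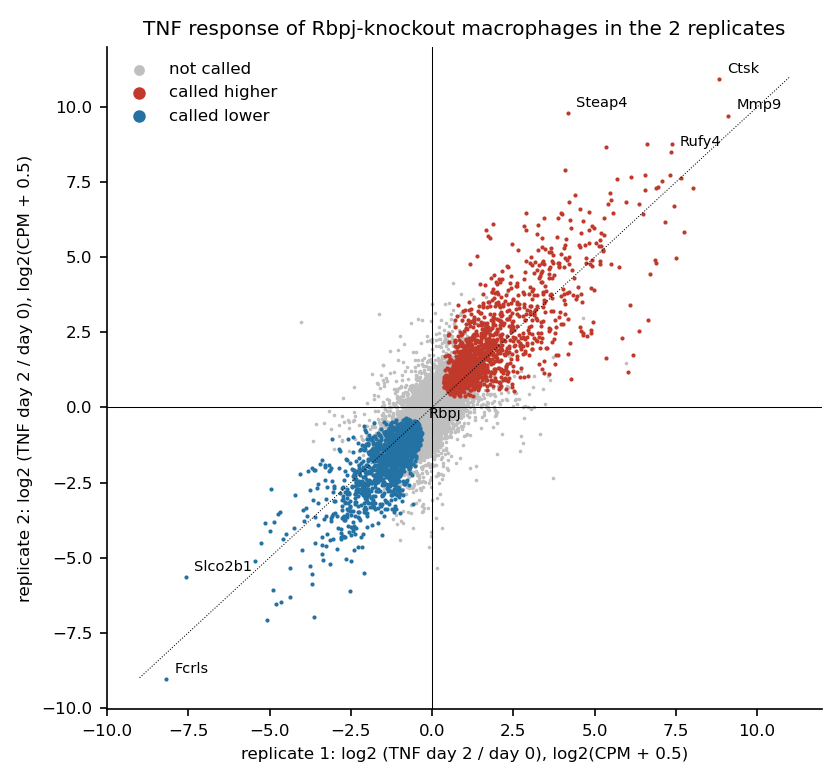
Each point is 1 of 12194 genes, with its log2 change between TNF day 2 and day 0, on the log2(CPM + 0.5) scale, in knockout replicate 1 (x) and replicate 2 (y). Red and blue points were called higher (1486) and lower (1676), and the dotted line marks equal changes. All called genes lie in the lower left or upper right quadrant, from Fcrls at -8.19 and -9.04 to Ctsk at 8.82 and 10.92. The calls were made on these same libraries.

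The lists of genes with the highest medians were those of bone resorption, of osteoclast fusion, and of the citric acid cycle. The lowest were markers of resident macrophages and of neutrophils. Over all genes tested the median change was -0.10, and it was -0.03 with median-ratio scaling, so list medians are read against a base near 0. The list medians named in the next paragraphs come from the members that passed the filter of 1 CPM in 2 libraries. Counts of called members are read against the 12.2% higher and 13.7% lower of all genes tested, which several lists come near.

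**Figure D2:**
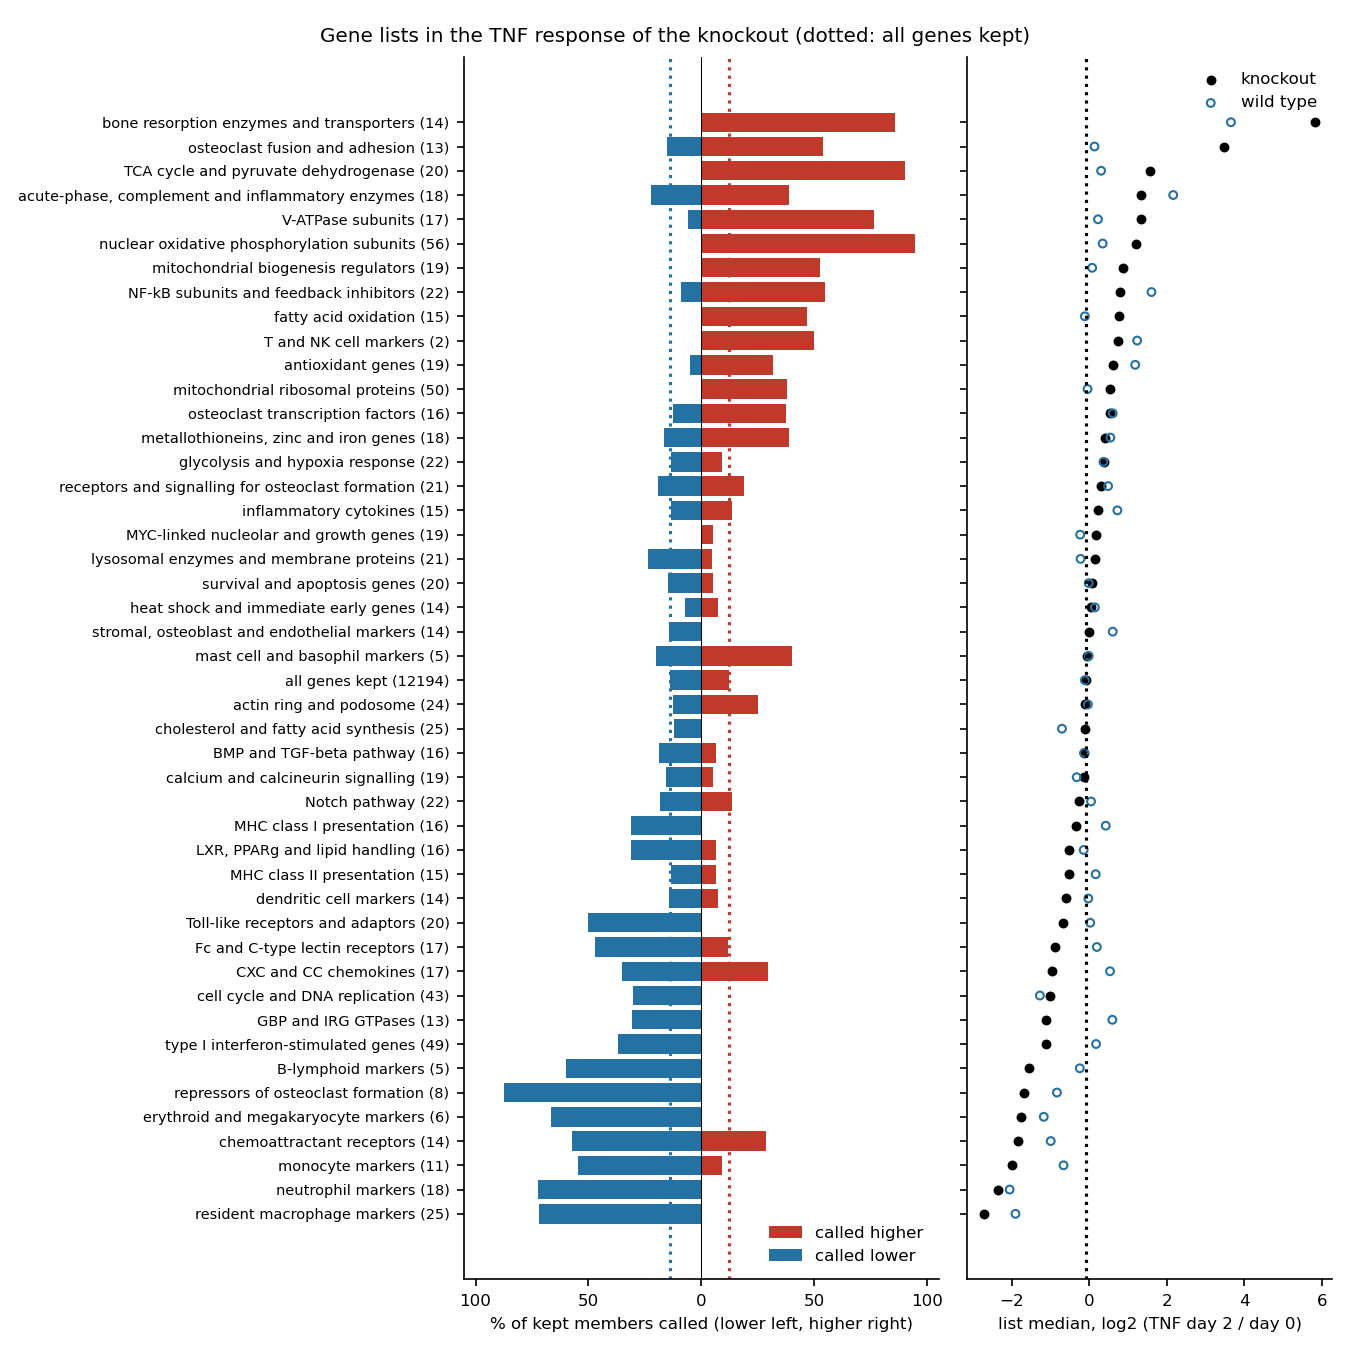
Left, the share of each list's kept members (number in parentheses) called higher (red, to the right) or lower (blue, to the left) in the knockout, with dotted lines at 12.2% and 13.7% for all genes tested; right, the list's median log2 change in the knockout (filled) and the wild type (open). Bone resorption (median 5.83) stands at the top and resident macrophage markers (median -2.73) at the bottom.

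Genes for the resorption of bone had the highest median of all lists. Of the 14 enzymes and transporters listed, all kept, 12 rose and 0 fell (8 without the block), with a median log2 change of 5.83. Ctsk, the collagenase cathepsin K of osteoclasts (GRCm38 chromosome 3, 95499256 to 95509362, plus strand), stood at 4.72 and 7.46 CPM at day 0, against 2355 and 15476 CPM with TNF. The TNF libraries lay far above both day 0 libraries, with a change of 9.87 ± 0.46 (adjusted p = 0.000512), although the 2 TNF libraries differed between themselves. Mmp9, a gelatinase that osteoclasts secrete, was even at day 0 (14.5 and 14.3 CPM) and high with TNF (8354 and 12493 CPM), a change of 9.42 ± 0.30 (adjusted p = 9.59e-05). Acp5, the tartrate-resistant phosphatase by which osteoclasts are stained, went from 18.7 and 64.1 to 4972 and 10199 CPM (7.66 ± 0.49, adjusted p = 0.000638). In these 3 genes no day 0 library came near a TNF library.

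The genes that acidify the resorption space moved with them. Car2, the carbonic anhydrase that supplies protons, had 0.643 and 1.2 CPM at day 0, against 136 and 266 CPM with TNF (7.10 ± 0.37, adjusted p = 0.000512). Slc4a2, the chloride-bicarbonate exchanger, had 152 and 62.1 CPM and then 589 and 644 CPM (2.66 ± 0.36, adjusted p = 0.00423, and 0.0587 without the block). Its 2 TNF libraries were close together while the 2 day 0 libraries were not. Slc9b2, a sodium-proton antiporter of osteoclasts, had 1.47 and 5.91 CPM and then 399 and 1276 CPM (7.65 ± 0.49, adjusted p = 0.000638). Snx10, a sorting nexin needed for acid secretion, had 99.5 and 187 CPM and then 623 and 2490 CPM (3.19 ± 0.31, adjusted p = 0.00176, and 0.0572 without the block). Clcn7, a chloride transporter of the ruffled border, had 108 and 120 CPM and then 460 and 1041 CPM (2.59 ± 0.41, adjusted p = 0.00716). It was not called without knockout day 0 replicate 2. Tcirg1, the a3 subunit of the osteoclast proton pump, went from 729 and 401 to 1270 and 1217 CPM (1.20 ± 0.24, adjusted p = 0.0148, and 0.159 without the block). That call was lost without knockout day 0 replicate 2 (0.129) or TNF replicate 2 (0.0819). Mmp14, a membrane-bound metalloproteinase, had 10.3 and 232 CPM at day 0, a wide pair, and 1086 and 1741 CPM with TNF (4.78 ± 0.91, adjusted p = 0.0127, 0.108 without the block and 0.0578 without TNF replicate 1).

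Rufy4, which takes part in the lysosome-related secretion of osteoclasts (GRCm38 chromosome 1, 74125541 to 74148223, plus strand), had 3 reads at day 0, both libraries together, against 4921 with TNF. The ratio of reads, each pooled over its group and scaled to depth, was 2874 (95% counting interval 983 to 13941, counting error only), and the fitted change was 7.93 ± 0.42 (adjusted p = 0.000512). The windows of 250 bases before the annotated RefSeq starts (GRCm38.p6) are shown for 3 resorption genes. They hold letters that were searched for and that most members of the list lack. The motifs searched on both strands were TGAGTCA or TGACTCA for AP-1, and TGGGAA, the core of Rbpj sites. TGGGAA holds the letters GGAA of NFAT sites but is not by itself a full NFAT site. Of 11 promoters of the resorption list 2 held the AP-1 letters (18.2%) and 3 held TGGGAA (27.3%, near the 23.8% of all promoters). In capitals is the match as read on the gene's strand, TTCCCA being TGGGAA on the other strand. The first bases of the matches lie at -41 for Rufy4 (chr1:74125291-74125540, plus strand), -64 for Clcn7 (chr17:25133141-25133390, plus strand), and -192 and -168 for Tcirg1 (chr19:3905231-3905480, minus strand).
Rufy4: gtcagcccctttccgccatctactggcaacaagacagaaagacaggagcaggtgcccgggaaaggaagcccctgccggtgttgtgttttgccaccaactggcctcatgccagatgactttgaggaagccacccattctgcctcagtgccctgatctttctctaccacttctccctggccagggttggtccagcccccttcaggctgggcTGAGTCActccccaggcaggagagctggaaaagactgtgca
Clcn7: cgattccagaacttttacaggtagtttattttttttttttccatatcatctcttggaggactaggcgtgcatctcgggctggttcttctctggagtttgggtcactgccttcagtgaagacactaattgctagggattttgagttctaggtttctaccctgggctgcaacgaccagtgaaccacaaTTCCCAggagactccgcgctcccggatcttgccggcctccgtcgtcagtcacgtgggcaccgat
Tcirg1: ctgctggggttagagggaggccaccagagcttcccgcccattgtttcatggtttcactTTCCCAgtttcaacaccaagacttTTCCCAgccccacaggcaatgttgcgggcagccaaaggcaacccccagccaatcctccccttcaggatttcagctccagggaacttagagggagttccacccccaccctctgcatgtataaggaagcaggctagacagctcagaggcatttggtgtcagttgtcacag
Of 9358 tested genes with a RefSeq promoter, 4.18% held the AP-1 letters in a window of this length before a start. Among genes called higher the share was 6.32%, and 9.04% among the 343 that rose by at least 2 on the log2 scale and had a promoter. Among genes called lower it was 4.89%, and 7.6% among the 250 with a promoter that fell by at least 2. For TGGGAA the shares were 23.8% of all, 26.3% of those called higher and 29.4% of those that rose by at least 2, against 23.1% of those called lower and 26.4% of those that fell by at least 2. So for both motifs the share was higher among the larger changes in either direction. These shares describe letters and were not tested, and no binding was measured.

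**Figure D3:**
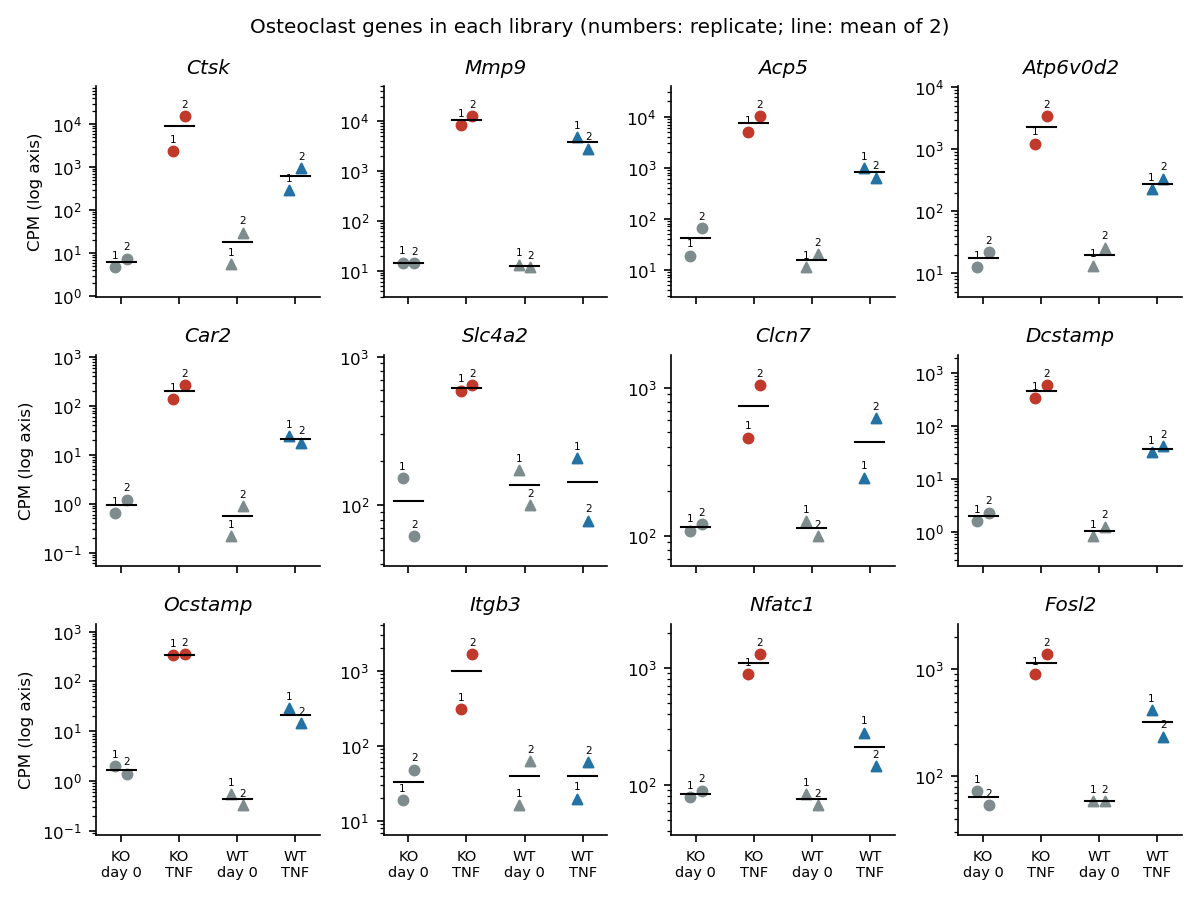
CPM (log axis) of 12 osteoclast genes in each library: knockout (circles) and wild type (triangles) at day 0 (grey) and TNF day 2 (red or blue), numbered by replicate, with a line at the mean of 2. In the knockout each TNF library lies above both day 0 libraries in all 12 panels, for example Dcstamp at 1.61 and 2.31 CPM and then 337 and 602 CPM. Over all genes tested, the knockout groups did not overlap, in either direction, in 45.7%.

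Fusion and attachment genes were divided. Of 13 members, all kept, 7 rose and 2 fell (6 and 1 without the block), with a median of 3.46. One of the decreases was that of Adam8, a membrane protease, from 2497 and 1299 to 956 and 146 CPM (-2.27 ± 0.57, adjusted p = 0.0312, and 0.234 without the block). It was not called without knockout day 0 replicate 1 (0.0972) or 2 (0.178), TNF replicate 2 (0.137) or wild-type TNF replicate 1 (0.0582) or 2 (0.0583). Dcstamp and Ocstamp, the membrane proteins through which precursors fuse, rose on the log2 scale by 7.53 ± 0.20 (adjusted p = 8.08e-05) and 7.30 ± 0.28 (adjusted p = 0.000218). Ocstamp had 1.97 and 1.42 CPM at day 0, against 331 and 355 CPM with TNF, and each of its libraries sat close to its partner. Itgb3, the beta chain of the vitronectin receptor of osteoclasts, had 18.9 and 48 CPM and then 307 and 1662 CPM (4.54 ± 0.27, adjusted p = 0.000568, and 0.0613 without the block), with both groups spread but apart. Itgb5, an alternative beta chain of precursors, moved the other way, from 523 and 733 to 124 and 95.1 CPM (-2.50 ± 0.29, adjusted p = 0.0027). Siglec15, a sialic acid receptor of fusing cells, had 0 reads at day 0, both libraries together, against 686 with TNF. At a floor of 3 reads over the day 0 group it was at least 401-fold higher, for counting error only. Src, the kinase of the sealing zone, had 3.43 and 17.6 CPM and then 462 and 509 CPM (5.85 ± 0.43, adjusted p = 0.000875). Myo10, an unconventional myosin, had 30.1 and 43.7 CPM and then 400 and 408 CPM (3.46 ± 0.21, adjusted p = 0.000589). Itga2, a collagen receptor chain, had 0.214 and 0.311 CPM at day 0, against 14.5 and 108 CPM with TNF (5.73 ± 0.60, adjusted p = 0.00199).

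Transcription factors of the osteoclast programme did not move as 1 group. Of 16 members 6 rose and 2 fell (4 and 0 without the block), with a median of 0.52. The count of those that rose was 4 without knockout day 0 replicate 1, and that of those that fell was 1 without day 0 replicate 1 or 2 or TNF replicate 2. Nfatc1 had 77.8 and 88.8 CPM at day 0, against 883 and 1316 CPM with TNF (3.69 ± 0.35, adjusted p = 0.00158), with no overlap. Fosl2, an AP-1 partner, had 72.8 and 54 CPM and then 912 and 1393 CPM (4.16 ± 0.32, adjusted p = 0.00101). Jdp2, a Jun dimerization protein, had 20.9 and 12.9 CPM and then 818 and 510 CPM (5.26 ± 0.47, adjusted p = 0.00139). In contrast Jun, which pairs with Fos factors in AP-1, fell from 278 and 106 to 134 and 34 CPM (-1.34 ± 0.18, adjusted p = 0.00423, and 0.512 without the block). For Jun each replicate fell while the 2 groups overlapped. Fos itself had 87.3 and 102 and then 320 and 159 CPM and was not called (adjusted p = 0.127), nor was Myc, at 85 and 36.7 and then 88.7 and 13.6 CPM (adjusted p = 0.377).

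Repressors of osteoclast formation fell together. Of 8 kept members (of 9 listed) 7 fell and 0 rose (3 without the block), with a median of -1.69. Prdm1 (Blimp1), a factor that silences such repressors and is listed with the transcription factors, rose from 22.7 and 46.1 to 205 and 419 CPM (3.16 ± 0.20, adjusted p = 0.000638). Irf8, an interferon regulatory factor that blocks Nfatc1, stood at 224 and 151 CPM at day 0, against 58.6 and 33.3 CPM with TNF (-2.04 ± 0.15, adjusted p = 0.000875, and 0.0574 without the block). Bcl6, a zinc finger repressor, had 95.8 and 104 CPM and then 42.8 and 36.1 CPM (-1.33 ± 0.15, adjusted p = 0.00267). In both the lower day 0 library was still above the higher TNF library. Of the inhibitors of DNA binding, which sequester helix-loop-helix factors, Id1 went from 57.2 and 42.5 to 0.812 and 0.738 CPM (-5.29 ± 0.38, adjusted p = 0.000798). Id3 went from 70.3 and 100 to 6.8 and 11.8 CPM (-3.16 ± 0.34, adjusted p = 0.0021).

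Among 21 receptors and signalling genes of osteoclast formation, 4 rose and 4 fell (2 and 0 without the block). The counts were 2 and 1 without knockout day 0 replicate 1, 2 and 0 once day 0 replicate 2 was dropped, and 4 and 0 once TNF replicate 2 was. Oscar, a collagen-binding costimulatory receptor, had 10 reads in the day 0 pair against 4847 in the TNF pair. Its CPM went from 0.286 and 0.0888 to 31.7 and 239 (7.01 ± 0.74, adjusted p = 0.00205). Calcr, the calcitonin receptor of mature osteoclasts, had 1 read in the day 0 pair against 2349 in the TNF pair, a ratio of 4116 (95% counting interval 738 to 162630). Most of those reads lay in TNF replicate 2, at 8.73 and 119 CPM, and the call (adjusted p = 0.0065) was lost without knockout day 0 replicate 2 (0.057). Tnfrsf11a, which encodes the RANK receptor, had 109 and 156 CPM and then 166 and 275 CPM and was not called (adjusted p = 0.217). The TNF receptors stood at 270 and 194 and then 173 and 122 CPM for Tnfrsf1a, and 340 and 523 and then 516 and 521 CPM for Tnfrsf1b (adjusted p = 0.0266 and 0.54). The Tnfrsf1a call was absent without the block (0.352) and without any 1 of the 4 knockout libraries (0.0735 to 0.158).

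Of 24 actin ring and podosome genes 6 rose and 3 fell (2 and 0 without the block). Leaving out day 0 replicate 1 gave 3 and 1, day 0 replicate 2 gave 3 and 0, and TNF replicate 2 gave 4 and 1. Vcl, vinculin of adhesion sites, went from 62.4 and 59.9 to 155 and 282 CPM (1.77 ± 0.23, adjusted p = 0.00358). Cttn, cortactin, which binds branched actin, went from 11.3 and 8.8 to 110 and 96.5 CPM (3.31 ± 0.32, adjusted p = 0.00166). Gsn, the actin-severing gelsolin, had 702 and 444 and then 835 and 709 CPM and was not called (adjusted p = 0.206).

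The vacuolar proton pump (V-ATPase) carries acid across lysosomal membranes and, in osteoclasts, across the ruffled border. Its list shares Tcirg1 and Atp6v0d2 with the resorption list, so both are counted in each. Of 17 kept subunits (18 listed) 13 rose and 1 fell (6 and 1 without the block), with a median of 1.32. Only 6 of those increases were called without knockout day 0 replicate 2. The largest was that of Atp6v0d2, the osteoclast d2 isoform, at 12.6 and 22.1 CPM at day 0, against 1226 and 3402 CPM with TNF (6.89 ± 0.23, adjusted p = 9.59e-05). Its ubiquitous counterpart Atp6v0d1 had 218 and 174 and then 240 and 248 CPM and was not called (adjusted p = 0.174). Subunits of the cytosolic domain, which hydrolyses ATP, rose less but from higher levels. Atp6v1b2 went from 594 and 711 to 2766 and 4953 CPM (2.51 ± 0.22, adjusted p = 0.00129), and Atp6v1d from 116 and 128 to 402 and 693 CPM (2.11 ± 0.21, adjusted p = 0.00179). Atp6v1a had 732 and 1012 CPM and then 1863 and 3499 CPM (1.57 ± 0.22, adjusted p = 0.00476, and 0.0825 without the block). The exception was Atp6v0a1, an a subunit other than the one osteoclasts use, which fell from 266 and 178 to 57.4 and 37.5 CPM (-2.22 ± 0.14, adjusted p = 0.000638). Atp6v0c, the proteolipid of the membrane ring, was at or near 0 reads in every library and was not tested. The annotation used for counting is not given, so this does not show that the gene was silent.

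Lysosomal enzymes and membrane proteins did not follow the pump and gave no common direction. Their median was 0.15, with 12 of 21 changes positive and 9 negative. In all 28.6% of members were called, near the 25.9% of all genes tested. Of 21 members 1 rose and 5 fell (0 without the block), and the fallers numbered between 1 and 3 in the 8 fits that each drop a library. The abundant protease Ctsb had 13964 and 14025 CPM at day 0, against 6266 and 6044 CPM with TNF (adjusted p = 0.0522, not called). Ctsz moved the other way, from 879 and 709 to 1417 and 1566 CPM (adjusted p = 0.0544, not called). Cd63, the 1 member called higher, went from 315 and 237 to 466 and 500 CPM (adjusted p = 0.0483, and 0.164 without the block). That call was lost without any 1 of the knockout libraries. Lamp2, a lysosomal membrane protein, had 715 and 1362 CPM and then 300 and 448 CPM (-1.43 ± 0.20, adjusted p = 0.00491, 0.155 without the block and 0.0525 without knockout day 0 replicate 2).

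Among nuclear genes of the mitochondrial energy pathways, most members rose in the oxidative phosphorylation and citric acid cycle lists, and fewer did so for fatty acid oxidation and mitochondrial ribosomes. Of 56 subunits of the oxidative phosphorylation complexes, all kept, 53 rose and 0 fell, with a median of 1.21 and a range from 0.37 to 2.24. The count was 16 without the block. It was 22 without knockout day 0 replicate 2 and 35 without day 0 replicate 1 or TNF replicate 2, while 56 of 56 changes were positive in the full fit. Over all genes tested 5242 of 12194 changes were positive. The summed level of the oxidative phosphorylation list was 7278 and 5222 CPM at day 0, against 15324 and 15658 CPM with TNF. Ndufs1, a core subunit of complex I, had 120 and 113 CPM and then 299 and 434 CPM (1.62 ± 0.20, adjusted p = 0.00335). Sdhb, the iron-sulphur subunit of complex II, had 125 and 116 CPM and then 324 and 343 CPM (1.46 ± 0.16, adjusted p = 0.00233). In complex III, Uqcrfs1, the Rieske protein, had 98.3 and 71.3 CPM and then 325 and 320 CPM (1.94 ± 0.16, adjusted p = 0.00124). Its partner Cyc1, cytochrome c1, had 113 and 53.8 CPM and then 406 and 340 CPM (2.24 ± 0.23, adjusted p = 0.00189, and 0.0558 without the block). For each of these the TNF libraries lay above both day 0 libraries. Cox4i1 of complex IV had 312 and 169 CPM and then 597 and 465 CPM, called with the block (adjusted p = 0.00805) but not without it (0.253) or without knockout day 0 replicate 2 (0.0755). Atp5g3, a c-ring subunit of ATP synthase (GRCm38 chromosome 2, 73908447 to 73911326, minus strand), had 228 and 167 CPM and then 594 and 626 CPM (1.64 ± 0.18, adjusted p = 0.00211).

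Enzymes that feed the respiratory chain rose at least as far. Of 20 citric acid cycle and pyruvate dehydrogenase genes 18 rose and 0 fell (14 without the block and 12 at the fewest when 1 library was left out), with a median of 1.57. Cs, citrate synthase, had 294 and 224 CPM at day 0, against 804 and 872 CPM with TNF (1.70 ± 0.18, adjusted p = 0.00199). Idh3a, a subunit of the NAD-dependent isocitrate dehydrogenase, had 92.7 and 61 CPM and then 374 and 355 CPM (2.27 ± 0.24, adjusted p = 0.00199). The pyruvate dehydrogenase subunits Pdha1 and Pdhb went up by 1.61 ± 0.20 and 2.08 ± 0.21 (adjusted p = 0.00335 and 0.00189), and Mpc2, a subunit of the mitochondrial pyruvate carrier, by 1.87 ± 0.20 (adjusted p = 0.00199). Both malate dehydrogenases moved alike, the mitochondrial Mdh2 from 271 and 121 to 848 and 753 CPM and the cytosolic Mdh1 from 195 and 210 to 578 and 1075 CPM (adjusted p = 0.00257 and 0.00523).

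Fatty acid oxidation genes had a median of 0.76, with 7 of 15 called higher and 0 lower. Those calls were 0 in the fits without the block or without knockout day 0 replicate 2. They numbered 3 without day 0 replicate 1, and 2 without TNF replicate 2. Cpt1a, the entry step of that pathway, had 200 and 171 and then 164 and 206 CPM (adjusted p = 0.974, not called). Mitochondrial ribosomal proteins had a median of 0.53, with 19 of 50 called higher and 0 lower. Of these calls 1 was left without the block, and between 2 and 4 when any 1 of the 4 knockout libraries was left out. Mrps35, of the small subunit, was called in each of those fits, at 17.7 and 14.1 CPM and then 55.7 and 51.8 CPM (1.74 ± 0.21, adjusted p = 0.00292).

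Of 19 kept regulators of mitochondrial biogenesis (20 listed) 10 rose and 0 fell (2 without the block and 4 without knockout day 0 replicate 2). Ppargc1b, the coactivator PGC-1beta, which osteoclasts are known to use, had 5.83 and 1.64 CPM at day 0, against 111 and 64.6 CPM with TNF (4.53 ± 0.24, adjusted p = 0.000512). Esrra, the orphan receptor ERR alpha on which it acts, had 61.4 and 16.5 CPM and then 128 and 41.1 CPM (1.17 ± 0.15, adjusted p = 0.00393, and 0.59 without the block). Esrra rose in each replicate, but the 2 groups overlapped. Perm1, another coactivator-linked regulator, had 2.14 and 5.15 CPM and then 16 and 26 CPM (2.44 ± 0.23, adjusted p = 0.00158, and 0.0825 without the block). Lrpprc, which stabilises mitochondrial transcripts, had 100 and 88.6 CPM and then 236 and 229 CPM (1.30 ± 0.16, adjusted p = 0.00313). Tfam, the mitochondrial transcription factor, had 37.7 and 44.6 and then 46.2 and 46.2 CPM (adjusted p = 0.462) and Pprc1 92 and 56.9 and then 92.1 and 53.4 CPM (adjusted p = 0.895), and neither was called. The ERR alpha letters TCAAGGTCA were sought in the promoters, and Atp5g3 is shown because it was the 1 oxidative phosphorylation gene of 43 with a promoter that held them (2.33%, against 0.289% of all). The match reads TGACCTTGA on the gene's strand and begins at -52 (RefSeq, GRCm38.p6, chr2:73911327-73911576, minus strand).
Atp5g3: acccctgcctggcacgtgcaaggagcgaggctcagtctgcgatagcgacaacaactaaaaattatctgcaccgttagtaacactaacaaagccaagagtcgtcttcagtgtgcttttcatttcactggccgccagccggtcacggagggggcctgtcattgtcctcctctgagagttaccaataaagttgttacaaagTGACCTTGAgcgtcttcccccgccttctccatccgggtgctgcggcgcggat
None of 18 citric acid cycle promoters held these letters in the windows searched, which says nothing of the factor elsewhere. The share was 0.263% among genes called higher and 0.401% among those called lower. It was 0 among the 343 with a promoter that rose by at least 2 on the log2 scale, and among the 250 that fell as far. These shares were not tested.

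**Figure D4:**
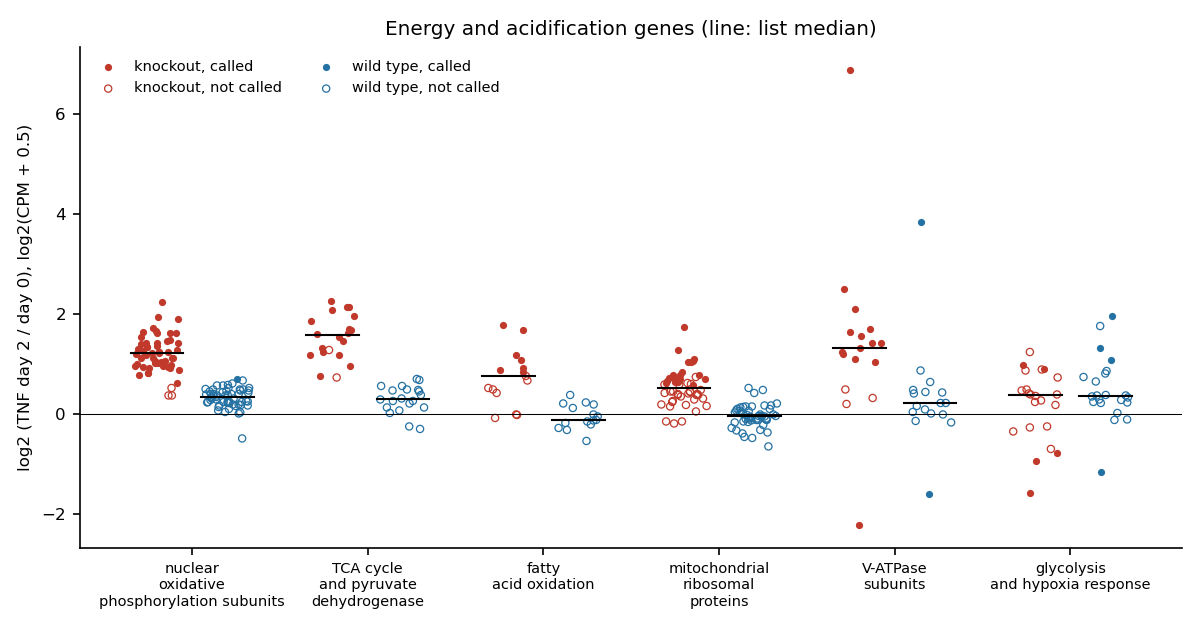
Log2 change between TNF day 2 and day 0, on the log2(CPM + 0.5) scale, of each kept member of 6 lists in the knockout (red) and the wild type (blue), filled where called and open where not, with a line at each list's median. The oxidative phosphorylation medians are 1.21 in the knockout and 0.34 in the wild type, and the glycolysis medians 0.38 and 0.36.

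Glycolysis and hypoxia response genes gave no common direction, with 2 of 22 kept members higher and 3 lower (0 without the block), and no more than 3 in either direction in any leave-one-out fit. Hk3, a myeloid hexokinase, fell from 496 and 207 to 171 and 65.9 CPM (-1.59 ± 0.15, adjusted p = 0.00161, and 0.279 without the block). Ldha, lactate dehydrogenase, had 958 and 309 and then 1181 and 444 CPM (adjusted p = 0.183), differing more between replicates than with TNF. Of 19 MYC-linked growth genes the 1 called (2 without either wild-type day 0 library) was Tfrc, the transferrin receptor for iron uptake, which went from 431 and 194 to 1882 and 2485 CPM (2.90 ± 0.42, adjusted p = 0.00527). Other iron and zinc genes were mixed, with 7 of 18 kept members higher and 3 lower (1 and 1 without the block). Leaving out day 0 replicate 1 gave 4 and 2, day 0 replicate 2 gave 2 and 2, and TNF replicate 2 gave 3 and 2. Slc40a1, the iron exporter ferroportin, had 1217 and 2300 CPM at day 0, against 197 and 285 CPM with TNF (-2.82 ± 0.39, adjusted p = 0.00468, and 0.0949 without the block). Trf, transferrin itself, had 191 and 332 CPM and then 34.8 and 19.5 CPM (-3.25 ± 0.35, adjusted p = 0.00206). Mt3, a metallothionein that binds zinc, had 5 reads at day 0 and 5284 with TNF, at 114 and 219 CPM (8.09 ± 0.39, adjusted p = 0.000512).

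Of lipid genes, 3 of 25 in cholesterol and fatty acid synthesis were called lower and 0 higher, and 0 were lower without the block or without knockout day 0 replicate 1, day 0 replicate 2 or TNF replicate 1, the last of which gave 2 higher. Of 16 kept genes under LXR and PPARg or in lipid handling 1 rose and 5 fell (0 and 2 without the block). Without knockout day 0 replicate 1 the counts were 0 and 3, and they were 1 and 2 without day 0 replicate 2 or TNF replicate 2. Pparg, the fatty acid-sensing nuclear receptor, had 32.1 and 44.2 CPM and then 1.52 and 1.16 CPM (-4.38 ± 0.31, adjusted p = 0.000798). Apoe, the secreted lipid carrier of macrophages, had 2766 and 2237 CPM and then 181 and 162 CPM (-3.86 ± 0.38, adjusted p = 0.00173). In both genes the 2 libraries of each group were close and the groups far apart.

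NF-kB genes, the direct arm of TNF signalling, rose in majority. Of 22 members 12 rose and 2 fell (7 and 0 without the block), with a median of 0.78. The increases numbered 9 to 12 in the leave-one-out fits, and the decreases 0 without knockout day 0 replicate 2, TNF replicate 2 or either wild-type TNF library. Relb and Nfkb2, the pair of the alternative pathway, went from 15 and 18.1 to 84.9 and 62.9 CPM (2.12 ± 0.22, adjusted p = 0.00199) and from 60.7 and 47.8 to 223 and 134 CPM (1.67 ± 0.15, adjusted p = 0.00144). The subunits of the classical pathway were not called: Nfkb1 had 166 and 200 and then 229 and 192 CPM, and Rela 108 and 85.6 and then 129 and 84.3 CPM (adjusted p = 0.464 and 0.608). Feedback inhibitors did rise. Nfkbia (I-kB alpha, GRCm38 chromosome 12, 55489410 to 55492647, minus strand) had 54.1 and 59.6 CPM at day 0, against 415 and 305 CPM with TNF (2.64 ± 0.23, adjusted p = 0.00139). Tnfaip3, the ubiquitin-editing enzyme A20, had 29.6 and 25.6 CPM and then 99.3 and 168 CPM (2.21 ± 0.31, adjusted p = 0.00489). Traf1, an adaptor of TNF receptors, had 2.11 and 11.2 CPM and then 70.9 and 60 CPM (3.58 ± 0.54, adjusted p = 0.00617). Birc3, an antiapoptotic ubiquitin ligase, had 23.6 and 59.8 CPM and then 115 and 152 CPM (1.80 ± 0.23, adjusted p = 0.00375, and 0.0996 without the block). The Nfkbia promoter is shown since 3 of the 18 promoters of this list (16.7%) held 1 of 2 consensus sites of NF-kB on either strand, against 0.395% of all and 0.966% of genes called higher. Its match, in capitals as read on the gene's strand, begins at -29 (RefSeq, GRCm38.p6, chr12:55492648-55492897).
Nfkbia: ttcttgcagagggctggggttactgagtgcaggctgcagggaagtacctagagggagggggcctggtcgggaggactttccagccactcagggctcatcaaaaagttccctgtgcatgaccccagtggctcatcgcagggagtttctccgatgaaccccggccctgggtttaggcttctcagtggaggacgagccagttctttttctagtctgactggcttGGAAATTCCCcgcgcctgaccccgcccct

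Inflammatory cytokines gave no common direction, with 8 changes positive, 7 negative and a median of 0.21. In all 26.7% of kept members were called, near the 25.9% of all genes tested. Of 15 kept cytokines (20 listed) 2 rose and 2 fell (1 and 0 without the block), and 1 to 3 rose and 0 to 3 fell in the leave-one-out fits. Lif, a cytokine of the interleukin 6 family, had 21 reads in the day 0 pair against 970 in the TNF pair, a ratio of 80.9 (95% counting interval 52.6 to 131; log2 change 5.48 ± 0.31, adjusted p = 0.000557). Tnf itself had 22.3 and 29.9 and then 24.9 and 38.9 CPM, and Il1b 0.822 and 13 and then 3.35 and 10.4 CPM, neither called (adjusted p = 0.435 and 0.444). Chemokines split, with 5 of 17 kept members higher and 6 lower (3 and 1 without the block). They were 4 and 3 without either knockout day 0 library and 3 and 2 without TNF replicate 2. Those that attract neutrophils rose, Cxcl2 from 0.893 and 2.49 to 33 and 17 CPM (3.57 ± 0.49, adjusted p = 0.00446) and Cxcl3 from 0.179 and 1.2 to 122 and 52.8 CPM (6.24 ± 0.65, adjusted p = 0.00199). Ccl22, which attracts T cells, rose from 1 and 3.2 to 15.5 and 53.2 CPM (3.64 ± 0.41, adjusted p = 0.00253, and 0.0554 without the block). By contrast Ccl2, which attracts monocytes, fell from 193 and 28.1 to 6.8 and 1.95 CPM (-4.14 ± 0.66, adjusted p = 0.00722, and 0.0698 without the block). Ccl4 fell from 43.4 and 44.7 to 3.35 and 7.17 CPM (-3.04 ± 0.37, adjusted p = 0.00314).

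Receptors for chemoattractants fell more often than they rose, 8 against 4 of 14 kept members (5 and 1 without the block), with a median of -1.85. Without knockout day 0 replicate 2, 4 fell and 2 rose, and the number that rose was 2 also without day 0 replicate 1 or TNF replicate 1. Ccr2, the receptor for Ccl2, went from 78.4 and 172 to 3.35 and 3.69 CPM (-4.86 ± 0.34, adjusted p = 0.000778). S1pr1, a sphingosine-1-phosphate receptor that guides precursors away from bone, had 113 and 113 CPM and then 15.9 and 5.27 CPM (-3.55 ± 0.37, adjusted p = 0.00202). Fpr2, a formyl peptide receptor, was higher with TNF, at 1.36 and 19.9 CPM and then 43.2 and 130 CPM (3.62 ± 0.40, adjusted p = 0.00234, and 0.232 without the block), with a wide gap between replicates in both groups.

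Among 18 kept acute-phase, complement and inflammatory enzyme genes (21 listed) 7 rose and 4 fell (2 and 0 without the block), and 4 rose without TNF replicate 1. Irg1, which makes itaconate, had 3.47 and 10.2 CPM and then 460 and 320 CPM (5.88 ± 0.43, adjusted p = 0.000844). Ptges, which makes prostaglandin E2, had 1.97 and 1.87 CPM and then 256 and 51.1 CPM (5.57 ± 0.56, adjusted p = 0.00176). The acute-phase gene Saa3 had 0.429 and 16.2 CPM at day 0, against 62.3 and 177 CPM with TNF (4.75 ± 0.69, adjusted p = 0.00536, and 0.118 without the block). Chil3, a lectin of alternatively activated cells, fell from 32 and 274 to 5.58 and 52.7 CPM (-2.39 ± 0.24, adjusted p = 0.00189, and 0.49 without the block), within each replicate but with the groups overlapping. Of 19 antioxidant genes 6 rose and 1 fell (2 and 0 without the block). The increases were 4 without knockout day 0 replicate 1 or TNF replicate 2 and 2 without day 0 replicate 2, and no decrease was called in those 3 fits. Slc7a11, the cystine importer, had 14.8 and 47.5 CPM and then 336 and 636 CPM (4.10 ± 0.35, adjusted p = 0.0013). Sod2, the mitochondrial superoxide dismutase, had 75 and 78.1 CPM and then 545 and 591 CPM (2.88 ± 0.21, adjusted p = 0.000816), with each pair of libraries close together.

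Markers of resident macrophages were the lowest list. Of 25 kept members (28 listed) 0 rose and 18 fell (10 without the block), with a median of -2.73. Without knockout day 0 replicate 2, 12 fell and 1 rose. Their summed level was 16290 and 17767 CPM at day 0, against 5265 and 5360 CPM with TNF. In bulk RNA, fewer cells of a type and less RNA per cell cannot be told apart. Fcgr1, the high-affinity IgG receptor, went from 167 and 440 to 5.17 and 5.96 CPM (-5.49 ± 0.35, adjusted p = 0.000638). Mrc1, the mannose receptor, went from 881 and 892 to 59.7 and 88.1 CPM (-3.60 ± 0.23, adjusted p = 0.000638). Maf, a transcription factor of mature macrophages, went from 471 and 632 to 58.2 and 72.3 CPM (-3.06 ± 0.17, adjusted p = 0.000546). The chains of complement C1q fell in step: C1qa from 1396 and 1302 to 227 and 112 CPM, C1qb from 2019 and 1676 to 311 and 125 CPM and C1qc from 1615 and 1260 to 216 and 76.8 CPM (adjusted p = 0.00266, 0.00318 and 0.0019). F13a1, coagulation factor XIII, had 358 and 114 CPM and then 10.9 and 6.06 CPM (-4.55 ± 0.60, adjusted p = 0.0039, and 0.0656 without the block). Adgre1, which encodes F4/80, went from 810 and 2939 to 408 and 397 CPM (-1.94 ± 0.43, adjusted p = 0.0204). It was not called without the block (0.226), without knockout day 0 replicate 2 (0.145) or without TNF replicate 2 (0.0617).

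Among receptors that sense antibody and microbes, called decreases outnumbered called increases. Of 17 kept Fc and C-type lectin receptors 2 rose and 8 fell (1 and 3 without the block). They were 1 and 5 with knockout day 0 replicate 1 dropped, 1 and 6 without day 0 replicate 2 or TNF replicate 1, 2 and 4 without TNF replicate 2, and 1 and 7 without either wild-type TNF library. Fcrls, an Fc receptor-like gene, had 17056 reads at day 0, both libraries together, against 10 with TNF. It stood at 264 and 429 CPM and then 0.406 and 0.316 CPM, the largest decrease of any gene tested (-8.62 ± 0.25, adjusted p = 8.08e-05). Fcgr3 went from 386 and 535 to 97.7 and 96.8 CPM (-2.22 ± 0.18, adjusted p = 0.00111). The 2 that rose were C-type lectins. Clec4e (Mincle), a receptor for glycolipids, went from 29.8 and 41.8 to 857 and 2526 CPM (5.36 ± 0.38, adjusted p = 0.000766). Clec4n (Dectin-2), a receptor for fungal mannans, had 58.1 and 278 CPM and then 324 and 481 CPM (1.63 ± 0.45, adjusted p = 0.0404, and 0.5 without the block). It was not called without knockout day 0 replicate 1 (0.199) or 2 (0.112), TNF replicate 1 (0.109) or wild-type TNF replicate 1 (0.0708) or 2 (0.0702). Of 20 Toll-like receptors and adaptors 0 rose and 10 fell (3 without the block, 5 without knockout day 0 replicate 2 and 6 without TNF replicate 2). Tlr13, a sensor of bacterial ribosomal RNA, went from 748 and 1389 to 202 and 152 CPM (-2.54 ± 0.34, adjusted p = 0.00412). Tlr4, the endotoxin receptor, went from 133 and 258 to 43.3 and 59.9 CPM (-1.85 ± 0.19, adjusted p = 0.00189, and 0.103 without the block). Tlr2 had 75.4 and 184 and then 156 and 221 CPM and was not called (adjusted p = 0.134).

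Type I interferon-stimulated genes were lower with TNF, mainly in replicate 2. Of 49 members, all kept, 0 rose and 18 fell, with 47 of 49 changes negative (6952 of 12194 over all genes) and a median of -1.13. None was called without the block. The number called was 1 without knockout day 0 replicate 2, 3 without TNF replicate 2, 10 without day 0 replicate 1 and 36 without TNF replicate 1. Summed over the list, the level was 2536 and 16144 CPM at day 0, against 1824 and 4680 CPM with TNF, so replicate 2 began far higher than replicate 1 and fell further. Ifit2, an interferon-induced protein with tetratricopeptide repeats, had 16.8 and 784 CPM at day 0, against 11 and 84.2 CPM with TNF (adjusted p = 0.0475, 0.759 without the block). That call was lost in 6 of the 8 leave-one-out fits, with adjusted p up to 0.256. Isg15, the ubiquitin-like modifier, had 8.15 and 148 and then 8.42 and 44.8 CPM and was not called (adjusted p = 0.183), nor was Irf7, at 44.6 and 1130 and then 29.8 and 180 CPM (adjusted p = 0.0786). In both genes the 2 libraries of replicate 2 differed more than those of replicate 1, and the groups overlapped. Lgals9, galectin 9, moved evenly, from 163 and 341 to 50 and 61.1 CPM (-2.08 ± 0.25, adjusted p = 0.00311, and 0.0924 without the block). In 15 of 38 promoters of this list (39.5%) the core of an interferon-stimulated response element, GAAA followed after 2 free bases by GAAA, was found on either strand, against 3.4% of all promoters, 5.05% of those called lower and 2.55% of those called higher. The promoter of Isg15 (RefSeq, GRCm38.p6, chr4:156200819-156201068, minus strand) is shown for its 3 overlapping matches, in capitals, the first of them at -78.
Isg15: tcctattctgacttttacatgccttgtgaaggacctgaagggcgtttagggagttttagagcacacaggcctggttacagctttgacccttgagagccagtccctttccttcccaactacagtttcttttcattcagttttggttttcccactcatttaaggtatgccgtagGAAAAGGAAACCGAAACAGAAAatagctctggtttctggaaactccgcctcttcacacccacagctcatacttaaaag

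**Figure D5:**
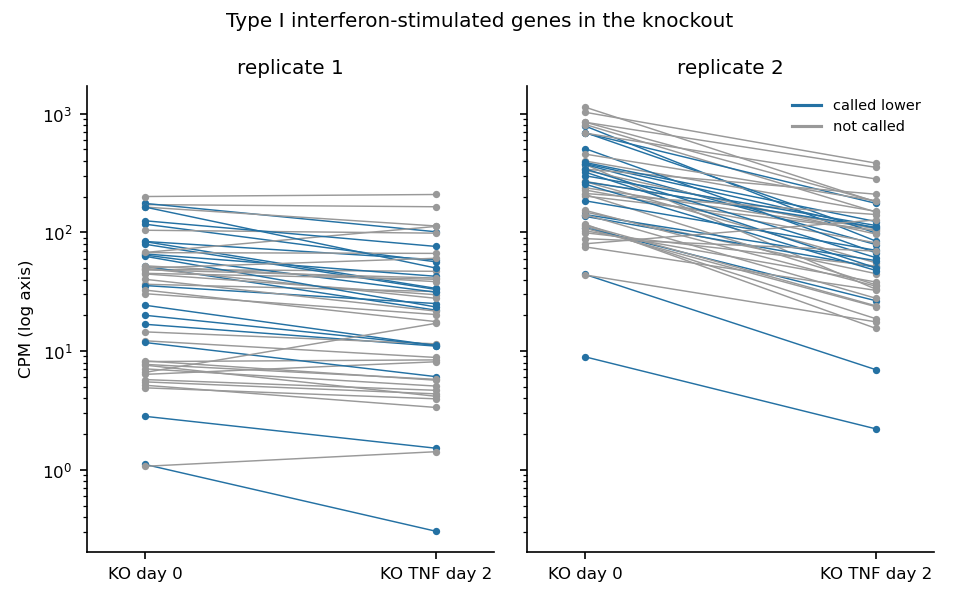
CPM (log axis) of the 49 type I interferon-stimulated genes in the knockout at day 0 and TNF day 2, with 1 panel per replicate and 1 line per gene, blue where called lower (18) and grey where not. Replicate 2 starts higher at day 0 (summed 16144 CPM against 2536) and falls further with TNF.

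Related gene groups shared that difference between replicates. GBP and IRG GTPases, which attack vacuoles of microbes, summed to 162 and 1500 CPM at day 0, against 154 and 691 CPM with TNF, and 4 of 13 kept members fell and 0 rose (0 lower without the block and 1 without knockout day 0 replicate 2 or TNF replicate 2). Gbp9 had 9.01 and 94.7 CPM and then 2.13 and 8.97 CPM (-2.59 ± 0.36, adjusted p = 0.00468, and 0.393 without the block). Of 16 MHC class I presentation genes 5 fell and 0 rose, and of 15 class II genes 2 fell and 1 rose, with 0 of either called without the block. Without knockout day 0 replicate 2 or TNF replicate 2 no gene of these 2 lists was called, and without day 0 replicate 1 there was 1 class I call. Without TNF replicate 1, 1 class II gene fell, and without either wild-type day 0 library 2 rose. B2m, the light chain of class I molecules, had 924 and 5311 and then 1045 and 2940 CPM, and H2-Ab1, a class II chain, 14.5 and 40.7 and then 8.02 and 19.2 CPM. Neither was called (adjusted p = 0.478 and 0.0651).

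Proliferation genes were lower with TNF in both replicates, but few passed in every fit. Of 43 cell cycle and replication genes 0 rose and 13 fell, with 41 of 43 changes negative (6952 of 12194 over all genes) and a median of -1.03. The number that fell was 1 without the block, 2 without TNF replicate 2, 3 without knockout day 0 replicate 2, 4 without day 0 replicate 1 and 8 without wild-type TNF replicate 1. It was 22 without TNF replicate 1, and leaving out a wild-type day 0 library gave 23 (replicate 1) or 24 (replicate 2). Ccnd2, a G1 cyclin, had 82.2 and 69.3 CPM at day 0, against 8.93 and 2.79 CPM with TNF (-3.77 ± 0.34, adjusted p = 0.00143). Pcna, the sliding clamp of replication, had 367 and 241 CPM and then 121 and 55.3 CPM (-1.86 ± 0.20, adjusted p = 0.0021, and 0.0777 without the block). Mki67, the marker of cycling cells, had 704 and 210 and then 310 and 118 CPM and was not called (adjusted p = 0.106), with overlapping groups.

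Of the Notch pathway, whose nuclear factor is the deleted gene, 31.8% of kept members were called, near the 25.9% of all genes tested. Of 22 kept members (27 listed) 3 rose and 4 fell (0 and 1 without the block). They were 3 and 2 when day 0 replicate 1 was left out, and 2 and 0 when day 0 replicate 2 was. Notch4, a receptor, had 5.15 and 0.578 CPM and then 35.7 and 8.38 CPM (2.86 ± 0.40, adjusted p = 0.00469, and 0.347 without the block). Dtx2, a ubiquitin ligase of the pathway, had 20.3 and 10.8 CPM and then 48.8 and 24 CPM (1.18 ± 0.16, adjusted p = 0.00479, and 0.333 without the block). Notch1 had 111 and 68.4 CPM and then 54 and 28.6 CPM (-1.14 ± 0.19, adjusted p = 0.00867, 0.296 without the block, 0.0831 without day 0 replicate 2 and 0.0572 without TNF replicate 2). Among direct targets, Hes1 had 9.18 and 7.15 CPM and then 1.83 and 1.32 CPM (-2.07 ± 0.33, adjusted p = 0.00743, and 0.0633 and 0.0515 without day 0 replicates 1 and 2). Hey1 had 1.14 and 1.02 and then 0.406 and 0.422 CPM and was not called (adjusted p = 0.114).

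Markers of other blood cells moved with TNF too, and their part in the results above was not tested. Of 18 kept neutrophil markers (19 listed) 0 rose and 13 fell (5 without the block and 8 without TNF replicate 2), with a median of -2.37. Their summed level was 329 and 1226 CPM at day 0, against 78.4 and 188 CPM with TNF. The granule proteases Elane and Mpo went from 9.04 and 21.1 to 0.203 and 0.0527 CPM and from 31.1 and 82.3 to 2.03 and 0.158 CPM, and the secondary granule genes Ngp and Ltf from 52 and 234 to 2.03 and 2.48 CPM and from 29.7 and 141 to 0.71 and 1.11 CPM. All 4 fell (adjusted p = 0.00173, 0.00576, 0.00152 and 0.00189). S100a8 had 17.8 and 188 and then 21.4 and 25.1 CPM and was not called (adjusted p = 0.277). Of 11 kept monocyte markers 6 fell and 1 rose (1 and 0 without the block), the increase being lost without TNF replicate 1, and their sum went from 565 and 1006 to 175 and 258 CPM. Plac8 had 6.36 and 31.2 CPM and then 0.507 and 2.79 CPM (-3.02 ± 0.31, adjusted p = 0.00189, and 0.177 without the block). Of 6 kept erythroid and megakaryocyte markers 4 fell (0 without the block and 1 without knockout day 0 replicate 1 or 2 or TNF replicate 2), with sums of 384 and 305 CPM and then 161 and 39.3 CPM. In that list Hba-a1 was at 0 in every library.

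Lymphoid, mast and stromal markers were scarce or mixed. Of 5 kept B-lymphoid markers (12 listed) 3 fell, with 0 called without the block or without knockout day 0 replicate 1 or 2 or TNF replicate 2, 1 without TNF replicate 1, and 5 without either wild-type TNF library. Their sum, 121 and 125 CPM and then 75.1 and 71.4 CPM, was mostly Blnk, an adaptor that macrophages share. Of 15 T and NK markers 2 were kept, with sums from 1.39 to 14.4 CPM, and the 1 called higher, Klrb1c, was not called without the block or without any 1 of the 4 knockout libraries. In that list Cd3d stood at 0.143 and 0.355 CPM at day 0, against 0 with TNF. Of 5 kept mast cell and basophil markers 2 rose and 1 fell, with sums from 2.04 to 10.8 CPM, and either count lost a member in several leave-one-out fits. Among them Tpsab1, a tryptase, had 2 reads in the day 0 pair against 70 in the TNF pair, a ratio of 61.3 (95% counting interval 16.4 to 516). Of 14 kept dendritic cell markers 1 rose and 2 fell (0 without the block and 0 without knockout day 0 replicate 2 or TNF replicate 2, with no increase and 1 decrease without TNF replicate 1 and no increase without day 0 replicate 1), with sums from 1869 to 3658 CPM. Of 14 kept stromal, osteoblast and endothelial markers 2 fell (0 without the block, and 1 without knockout day 0 replicate 2), with sums of 2406 and 543 CPM and then 1537 and 1045 CPM. Collagen Col1a1 stood at 76.2 and 1.29 CPM at day 0, against 84 and 1.63 CPM with TNF, so it marked replicate 1 in both groups and was not called.

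Outside these lists lay several of the largest changes. Myo1d, an unconventional myosin, had 4.22 and 5.78 CPM and then 443 and 1327 CPM (7.14 ± 0.38, adjusted p = 0.000512). Spns2, a sphingosine-1-phosphate exporter, had 0.322 and 0.666 CPM and then 102 and 188 CPM (7.15 ± 0.39, adjusted p = 0.000512). Kbtbd11, a Kelch-domain protein, had 2.29 and 2.89 CPM and then 272 and 1483 CPM (7.69 ± 0.74, adjusted p = 0.00166). H2-M2, an MHC class I-like gene that may share reads with relatives, had 0.393 and 10.6 CPM and then 155 and 1162 CPM (7.08 ± 0.56, adjusted p = 0.00101, and 0.0929 without the block). Among the largest decreases were Slco2b1, an organic anion transporter, with 4277 reads at day 0 and 2 with TNF (-6.61 ± 0.45, adjusted p = 0.000706), a ratio of 0.000819 (95% counting interval 9.92e-05 to 0.00296). Rnase4, a secreted ribonuclease, had 116 and 123 CPM and then 2.94 and 0.422 CPM (-6.08 ± 0.76, adjusted p = 0.00335). Rnf144b, a ubiquitin ligase, had 58.2 and 211 CPM and then 1.01 and 8.81 CPM (-4.89 ± 0.30, adjusted p = 0.000608, and 0.073 without the block).

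Set beside the wild type, the knockout response covered more called genes, but no single gene passed the test of the difference. In the wild type 676 genes rose (5.54%) and 574 fell (4.71%), 10.3% in all, against 25.9% in the knockout, and 844 genes were called in both, which is 26.7% of the knockout calls and 67.5% of the wild-type calls. Of these, 842 had the same sign. The difference of the 2 responses gave 0 calls by limma with or without the block and 0 by edgeR. With the block the smallest adjusted p was 0.0537, and 2191 genes (18.0%) had an unadjusted p under 0.05. DESeq2 on the recovered reads called 986, and limma called 358 without knockout TNF replicate 1. So values of the 2 genotypes are given side by side, and whether single genes responded differently was not settled by this design. The median standard error of a difference was 0.32 on the log2 scale, against 0.23 for the change within the knockout.

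Resorption genes rose in the wild type too, where 10 of 14 were called higher and 0 lower, with a median of 3.65. The knockout change was the greater in 13 of 14, while Mmp14 changed more in the wild type (6.57 against 4.78). No difference in this list passed (smallest adjusted p 0.0738). In the wild type Ctsk and Dcstamp rose by 5.29 and 4.62 on the log2 scale and were called, while Nfatc1 changed by 1.41 and was not. Side by side, the osteoclast genes named next stood at higher levels with TNF in the knockout libraries. Ctsk stood at 297 and 948 CPM with TNF in the wild type, against 2355 and 15476 CPM in the knockout, and Dcstamp at 32.7 and 42.3 CPM against 337 and 602 CPM. Nfatc1 stood at 279 and 144 CPM with TNF in the wild type, against 883 and 1316 CPM in the knockout. Itgb3 in the wild type had 16.4 and 62.8 CPM at day 0, against 19.8 and 60.3 CPM with TNF, a change of 0.10 ± 0.27, against 4.54 ± 0.27 in the knockout (adjusted p of the difference = 0.0537). Atp6v1b2 had a wild-type change of 0.41 ± 0.22, against 2.51 ± 0.22 (adjusted p of the difference = 0.104). In the oxidative phosphorylation list the knockout change was the greater in 56 of 56 genes, in the citric acid cycle list in 20 of 20, and over all genes in 6206 of 12194. None of these genes passed alone (smallest adjusted p 0.104 in each list). The reverse order held for inflammatory genes. The knockout change was the smaller in 18 of 22 NF-kB genes, 17 of 18 acute-phase and inflammatory enzyme genes and 17 of 19 antioxidant genes, with smallest adjusted p of 0.104, 0.122 and 0.104. Saa3 reached 450 and 2051 CPM in the wild type and 62.3 and 177 CPM in the knockout, and Slc7a11 469 and 1475 CPM and 336 and 636 CPM. Of 49 interferon-stimulated genes 48 had the lower change in the knockout (smallest adjusted p 0.117). Their wild-type sum was 2177 and 8361 CPM at day 0, against 1885 and 12279 CPM with TNF, so replicate 2 went up in the wild type and down in the knockout.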

How the data were processed

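RNA was extracted with a column kit and poly-A libraries were sequenced, per the labels' protocols. The authors deposited 1 table of CPM (gene counts scaled to library totals) for 24421 gene symbols in 8 libraries. fastp, HISAT2, HTSeq, edgeR and mm10 are named in the submitters' processing notes; their versions, the annotation and the strand setting are not given in the sources used here. Near-identical or overlapping genes are therefore uncertain, and 27 symbols had been turned into dates.

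The 12194 genes (49.9%) that reached 1 CPM in 2 or more of the 8 libraries were tested on log2(CPM + 0.5) with limma 3.58.1 in R 4.3.3, all 4 groups in 1 fit, the replicate number as a block (3 residual degrees of freedom), and Benjamini-Hochberg adjustment over all genes tested at 0.05. The pairing comes from the replicate numbers. The deviations of same-numbered libraries correlated at 0.577 to 0.805 over the 6 pairs of groups, and no label says outright that a number marks an experiment. Whole reads could be recovered from the CPM steps (100% of values within 0.01 of a whole read), giving 9855859 to 35653203 reads per library, and edgeR 4.0.16 and DESeq2 1.42.0 were run on them as alternatives. On these reads edgeR called 1601 genes higher and 1473 lower in the knockout. The 2 libraries of a group differed by more than sampling noise in all 4 groups. Counting intervals (95%, exact binomial) and floors (3 reads) cover counting error only.

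Named genes were Rbpj, the 15 largest called increases and decreases of at least 2 CPM on average without overlap, key members of 45 gene lists, up to 5 further called members per list, and cell type markers; the text gives a part of these, and a few members are not reported here. Klrb1c was chosen after its value was seen. The genes and lists were chosen with earlier results of these data known. Of the symbols, 23358 were found in GENCODE M21, from which coordinates come, and promoters come from RefSeq. The fits were also run on simulated reads in which every group had the same replicate shift. That setting favours the block, so it gives no support for using the block on these libraries. Alternatives were other pseudocounts (0.1 and 1), filters (none and 5 CPM), median-ratio scaling, the fit without the block, only the knockout libraries, and leaving out each library.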

Additional observations from a re-analysis of the deposited data

How the results depend on the processing

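The replicate block decided the number of calls more than any other choice of fit: without it 622 genes were called in the knockout and 144 in the wild type, against 3162 and 1250 with it. The median standard error of a knockout change was 0.42 on the log2 scale without the block and 0.23 with it. Of 409 named genes tested, 219 were on the same side of the threshold without the block and 190 were no longer called, and none changed direction. Leaving out 1 library gave 894 to 3069 calls in the knockout, 249 to 1377 in the wild type and 0 to 358 for the difference of the responses. The wild-type count was 250 without its day 0 replicate 2, 249 without its TNF replicate 2 and 727 without its TNF replicate 1. DESeq2 called 2545 genes in the wild type and 986 for the difference. Without a filter the wild-type count was 784, and with a pseudocount of 1 the difference had 1 call. The cause was not tested. Pseudocounts of 0.1 and 1, a filter at 5 CPM, median-ratio scaling and edgeR gave knockout counts between 2895 and 3229, against 2794 without a filter, 2584 with only the knockout libraries and 4104 by DESeq2. TNF replicate 1 of the knockout, with 9855859 reads, limits the precision of low genes.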

Other observations

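Genes of 4 further lists moved little as groups. Of 20 survival and apoptosis genes 1 rose and 3 fell in the knockout (0 and 1 without the block), with a median log2 change of 0.07. With day 0 replicate 1 left out these counts were 0 and 2, without day 0 replicate 2 or TNF replicate 2 they were 0 and 1, and without either wild-type TNF library 2 rose. The decrease that did not depend on a library was that of Bcl2l1, which encodes the antiapoptotic protein Bcl-xL, from 214 and 123 CPM at day 0 to 34.3 and 25.5 CPM with TNF (-2.44 ± 0.15, limma adjusted p = 0.000638). Bad, a proapoptotic partner of Bcl-xL, went from 24.4 and 12.7 to 44.6 and 31.4 CPM (1.07 ± 0.20, limma adjusted p = 0.0127, 0.366 without the block 0.0716 and 0.103 without knockout day 0 replicates 1 and 2, and 0.0854 without TNF replicate 2).

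Of 16 kept BMP and TGF-beta genes 1 rose and 3 fell, of 19 calcium and calcineurin genes 1 rose and 3 fell, and of 14 heat shock and immediate early genes 1 rose and 1 fell, with 0 called in any of the 3 lists without the block. Each of these calls was lost when 1 knockout library or another was left out. Trpv4, a calcium-permeable channel of osteoclast precursors, went from 16.2 and 16.1 to 5.99 and 5.38 CPM (-1.43 ± 0.21, limma adjusted p = 0.00529, and 0.0623 without knockout day 0 replicate 2). Rcan1, a calcineurin regulator that is itself a target of NFAT, went from 40.5 and 88.8 to 207 and 203 CPM (1.76 ± 0.40, limma adjusted p = 0.022, 0.1 without knockout day 0 replicate 1, and 0.0853 and 0.085 without TNF replicates 1 and 2). Rcan1 stood at 37.1 and 45.4 CPM at day 0, against 47.8 and 28.2 CPM with TNF in the wild type.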
